A study of Mus musculus with 16 samples.

Results

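The comparison set mTEC-III against mTEC-I, 2 sorted populations of mouse medullary thymic epithelial cells, for H3K4me2 (histone H3 dimethylated at lysine 4), which marks promoters and enhancers. Its members are the 4 H3K4me2 libraries of these populations, 2 of each, out of 8 H3K4me2 libraries and 16 samples in the series, and the values they hold in all 29470 merged peaks outside the mitochondrial genome, which the deposited table gives to 15739 genes. mTEC-III cells were sorted from the thymus of C57BL/6 mice as CD45-Epcam+Ly6D+ and mTEC-I cells as CD45-Epcam+MHCIIlowItgb4+. The other 2 populations, mTEC-II (CD45-Epcam+MHCIIhigh) and mTEC-IV (CD45-Epcam+MHCIIlowItgb4-L1cam+), shared the fit and are named only for their levels. The labels give the same strain and tissue for every sample and name no treatment. They do not say whether replicates came from separate mice. Each p-value below therefore measures no more than the scatter between replicate libraries, pooled over all populations in the fit, and that scatter may be technical.

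Medullary thymic epithelial cells show developing T cells the antigens of other tissues, so that T cells that bind them strongly can be removed or diverted. Cells that carry the integrin chain Itgb4 and little MHC class II are known as an immature or junctional compartment with features of basal epithelium. Late medullary cells that have passed the Aire-expressing stage are known to take on features of the outer epidermis, with keratins and cornified envelope proteins, and Ly6D is a surface protein of squamous epithelium. H3K4me2 marks promoters and enhancers that are in use or ready for use, so its level is not a measure of transcription.

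Levels are given as normalised tags, that is H3K4me2 tags per 10000000 tags of the library, and the level of a gene adds up all peaks whose nearest annotated start site is its own. The mTEC-III libraries held 7926038.5 and 8492028 tags. The mTEC-I libraries held 6461587 and 1702103.5 tags, so that 1 tag is worth 5.88 normalised tags in mTEC-I replicate 2 and at most 1.55 in the other 3. Where no tag was seen, a level of up to 17.6 (3 tags) is possible in mTEC-I replicate 2 and one of 3.53 to 4.64 in the others, counting error only. Of the tags, 31.9% to 35.4% lay in the merged peaks. The log2 values of the replicates differed by an SD of 0.84 over peaks in mTEC-I and of 0.38 in mTEC-III, against 0.26 in mTEC-II and 0.33 in mTEC-IV. The fit pools the variance of each peak or gene over all populations, so an SE can understate the scatter of mTEC-I. Changes are mTEC-III minus mTEC-I on the log2(value + 1) scale, ± SE, from limma, with Benjamini-Hochberg adjusted p-values over all peaks or all genes, and those under 0.05 are called higher or lower. In bulk libraries a smaller share of cells with the mark and less of the mark per cell cannot be told apart.

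Many sites differed in both directions. Of 29469 peaks tested, 5051 (17.1%) were higher and 4025 (13.7%) were lower in mTEC-III. Of 15738 genes tested, 2362 (15.0%) were higher and 2584 (16.4%) were lower, and the median change over all genes was -0.01. The 15.0% and 16.4% are the shares to set beside each list count below. Both mTEC-III libraries lay above both mTEC-I libraries in 27.8% of genes and below both in 30.7%, and for peaks these shares were 31.9% and 28.2%. Large changes were mostly gains: 281 called genes were higher and 55 lower by more than 2 on the log2 scale. For peaks past the same size the counts were 1582 higher and 164 lower. Low mTEC-I levels rest on few tags, and for such genes the size of a fold depends on the pseudocount. No tag was seen in 1474 peaks in mTEC-I replicate 2 and in 191 in mTEC-I replicate 1, against 54 and 37 in the mTEC-III libraries. Among peaks with a mean of up to 25 normalised tags the median change was 0.72, and 0.17 with a pseudocount of 20. The excess of large gains was not recounted with other pseudocounts, so the part of depth in it was not tested. Of the 2584 lower genes, 75.2% had a mean mTEC-II level between those of mTEC-I and mTEC-III, and of the 2362 higher genes 55.9% did.

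**Figure D1:**
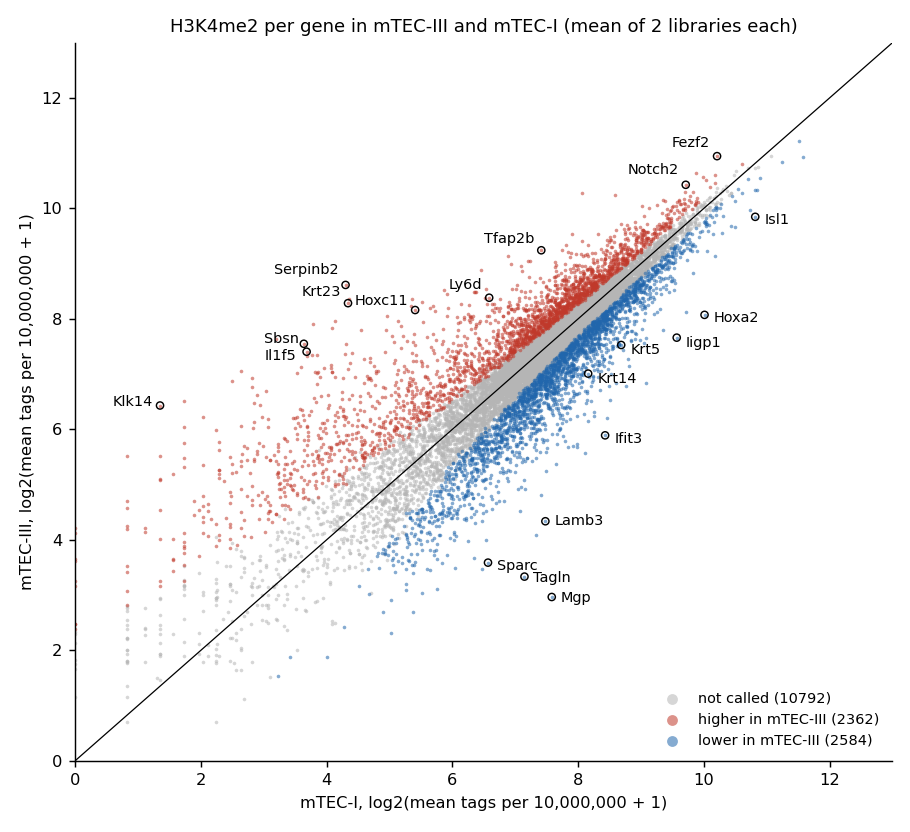
Mean H3K4me2 of each gene in mTEC-I (x axis) and mTEC-III (y axis), each as log2(mean normalised tags + 1) over 2 libraries, with the 2362 genes called higher in red and the 2584 called lower in blue. Epidermal genes such as Sbsn, Krt23 and Klk14 lie far above the diagonal at low mTEC-I levels, and of the labelled genes Mgp, Tagln, Sparc and Lamb3 lie farthest below it.

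The genes of the sort gates came first as a check of the labels. Ly6d stood at 114 and 76.4 normalised tags in the mTEC-I libraries and 315 and 351 in the mTEC-III libraries. Both mTEC-III libraries were far above both mTEC-I libraries (log2 change 1.82 ± 0.18, adjusted p = 2.71e-06). Itgb4, the integrin chain that anchors basal cells to laminin, stood at 330.4 and 285 in mTEC-I against 234 and 216 in mTEC-III, with the groups apart by less (log2 change -0.45 ± 0.11, adjusted p = 0.0056). Itgb4 was not called without mTEC-III replicate 2. H2-Aa, an MHC class II chain, was lower (log2 change -0.32 ± 0.10, adjusted p = 0.021), whereas Epcam (826 and 846 in mTEC-I against 884 and 1052 in mTEC-III), H2-Ab1, L1cam and Ptprc, the gene of CD45, were not called. Without mTEC-III replicate 1 H2-Aa changed by -0.20 and was not called. Epcam was called higher, by 0.20 to 0.22, by edgeR (adjusted p = 0.0236), with a pseudocount of 20 (adjusted p = 0.0491) and without mTEC-I replicate 2 (adjusted p = 0.0374), among other settings, and was not called by DESeq2. In all, 1 of the 7 gate genes was higher and 2 were lower. Of the 21 pan-epithelial genes, all of which had peaks, 9 were higher and 1 was lower, and over peaks within 2 kb of a start 4 were higher and 2 lower. Rab25, a GTPase of epithelial membrane traffic, led them with 109 and 106 in mTEC-I against 333 and 318 in mTEC-III (log2 change 1.59 ± 0.11, adjusted p = 1.00e-07), and the simple-epithelium keratin gene Krt7 was lower with 402 and 394 in mTEC-I against 185 and 195 in mTEC-III (log2 change -1.06 ± 0.11, adjusted p = 2.70e-06).

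The genes of the cornified envelope and of outer epidermal layers carried more H3K4me2 in mTEC-III. Of 41 listed genes, 32 had a peak, and 24 of these were higher and 1 was lower, with a median change of 1.24 against -0.01 over all genes. The summed level of the list was 3433 and 3202 in the mTEC-I libraries and 6879 and 6756 in the mTEC-III libraries. The list was written with earlier results of these data known, so its count is a description.

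Krt23, a keratin gene of differentiated epithelium, stood at 20.9 and 17.6 normalised tags in the mTEC-I libraries and 334 and 288 in the mTEC-III libraries. Neither mTEC-I library came near either mTEC-III library (log2 change 3.94 ± 0.17, adjusted p = 2.39e-09). Sbsn encodes suprabasin, a secreted protein of suprabasal keratinocytes, and its 2 peaks summed to 17.8 and 5.88 in mTEC-I against 174 and 163 in mTEC-III (log2 change 3.90 ± 0.44, adjusted p = 7.26e-06). Il1f5, the gene of the interleukin-36 receptor antagonist of skin, stood at 17.02 and 5.88 in mTEC-I against 211 and 162 in mTEC-III (log2 change 4.06 ± 0.41, adjusted p = 3.02e-06). In these 3 genes mTEC-I replicate 2 held at most 3 tags and mTEC-I replicate 1 stood below 21, while both mTEC-III libraries stood above 160. With a pseudocount of 20 the changes were 3.07, 2.59 and 2.73. By edgeR on the recovered tags they were 3.94, 3.48 and 3.68. In mTEC-IV Krt23 was also high, at 227 and 222, whereas Sbsn stood at 28.04 and 13.7 and Il1f5 at 19.2 and 11.95.

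Ivl encodes involucrin, the scaffold of the cornified envelope, and its single peak, in exon 2 at chr3:92375113-92378217 (mm9), stood at 20.1 and 11.8 in mTEC-I against 128 and 132 in mTEC-III (log2 change 3.00 ± 0.39, adjusted p = 3.22e-05). Dsc1, a desmosomal cadherin of the upper epidermis, stood at 9.29 and 17.6 in mTEC-I against 165 and 157 in mTEC-III (log2 change 3.55 ± 0.32, adjusted p = 8.89e-07). Spink5, which encodes an inhibitor of the epidermal kallikreins, had 118 and 118 in mTEC-I against 573 and 551 in mTEC-III (log2 change 2.25 ± 0.13, adjusted p = 2.53e-08). Each of these 3 genes was many-fold higher in both mTEC-III libraries than in either mTEC-I library. The keratin gene Krt77 stood at 6.19 and 0 in mTEC-I against 82.01 and 65.4 in mTEC-III, with the size of its change (4.79) resting on 4 tags in mTEC-I. Its change was 2.03 with a pseudocount of 20. Tgm3, a transglutaminase of the cornified envelope, was the single lower member, at 138 and 132 in mTEC-I against 66.2 and 90.7 in mTEC-III (log2 change -0.79 ± 0.17, adjusted p = 0.00186). Over peaks within 20 kb of its start Tgm3 had no tested level, and no gene of the list was then lower. The fall of Tgm3 thus rests on distant peaks that may belong to other genes. The 9 listed genes with no peak were Flg, Flg2, Krt80, Krt13, Krt6a, Krt6b, Sprr1b, Sprr3 and Sprr2a1.

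To show what lies in front of genes that moved together, the 250 bases upstream of the RefSeq start (GRCm38.p6, 5′ to 3′ on the gene's strand) are printed for 3 higher cornified genes that hold the AP-1 string TGANTCA, which is in capitals. AP-1 is a family of Fos and Jun dimers active in keratinocyte differentiation. They were chosen after the matches were seen. Their windows are chr7:30751221-30751470 on the plus strand for Sbsn, and chr3:92573736-92573985 for Ivl and chr3:92485882-92486131 for Sprr1a on the minus strand.
Sbsn: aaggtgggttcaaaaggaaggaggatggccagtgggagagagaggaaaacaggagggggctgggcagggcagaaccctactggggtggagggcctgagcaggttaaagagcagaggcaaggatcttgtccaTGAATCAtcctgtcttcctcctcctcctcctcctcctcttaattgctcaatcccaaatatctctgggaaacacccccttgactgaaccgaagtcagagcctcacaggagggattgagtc
Ivl: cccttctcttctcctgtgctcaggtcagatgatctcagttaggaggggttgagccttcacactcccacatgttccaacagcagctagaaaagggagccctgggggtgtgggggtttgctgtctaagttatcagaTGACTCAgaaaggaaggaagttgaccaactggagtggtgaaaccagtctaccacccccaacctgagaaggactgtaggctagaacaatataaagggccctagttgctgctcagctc
Sprr1a: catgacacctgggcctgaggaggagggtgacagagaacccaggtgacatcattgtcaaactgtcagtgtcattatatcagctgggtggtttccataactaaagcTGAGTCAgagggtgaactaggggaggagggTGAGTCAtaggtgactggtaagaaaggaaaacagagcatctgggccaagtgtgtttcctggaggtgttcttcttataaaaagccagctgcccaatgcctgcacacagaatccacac
In each the string begins 116 to 119 bases before the start, and Sprr1a holds a second one that begins 146 bases before it. Of the 24 higher cornified genes, 17 had a RefSeq promoter in the table, and 7 of these (41.2%) hold the string on either strand, against 7.82% of all 27025 promoters of the same length. The string TTGCNNAA, a form of the C/EBP site, was in 8 of the 17 (47.1%) against 10.8% of all promoters. None of the 10 promoters of lower basal genes held the AP-1 string, but 10 are too few to tell this from the 7.82% of all promoters. The string was also in 6 of 13 promoters (46.2%) of lower interferon-induced genes. A match describes letters and not binding, and 17 strings were searched, among them a pair that is the same string on opposite strands.

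Genes of the epidermal lipid barrier were higher more often than lower. Of 24 with a peak, 11 were higher and 3 lower (median 0.31). Abca12, the transporter that loads lamellar granules with lipid, stood at 31.7 and 41.1 in mTEC-I against 156 and 126 in mTEC-III (log2 change 1.93 ± 0.27, adjusted p = 6.35e-05). Pnpla1, which makes the acylceramides of skin, stood at 10.8 and 29.4 in mTEC-I against 95.9 and 100.1 in mTEC-III (log2 change 2.38 ± 0.40, adjusted p = 0.000295), and the epidermal lipase gene Lipk at 23.2 and 5.88 in mTEC-I against 138 and 136 in mTEC-III (log2 change 3.42 ± 0.42, adjusted p = 1.96e-05). In each of the 3, both mTEC-III libraries were above both mTEC-I libraries by several-fold. Lipn, another epidermal lipase gene, had 3 tags in mTEC-I and 72 in mTEC-III, a ratio of 11.9 (95% exact interval 3.92 to 59.2, counting error only). Its level was higher still in mTEC-IV, at 95.1 and 104 against 46.7 and 41.2 in mTEC-III. Lipk stood at 31.3 and 31.7 in mTEC-IV and Pnpla1 at 15.4 and 19.7. Fads2, a fatty acid desaturase (217 and 188 in mTEC-I against 90.2 and 84.8 in mTEC-III, log2 change -1.20 ± 0.15, adjusted p = 1.73e-05), Aloxe3, an epidermal lipoxygenase (log2 change -1.03 ± 0.22, adjusted p = 0.00229), and the sphingomyelinase gene Smpd3 were lower.

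The list of serpins, kallikreins and other proteases and inhibitors, not all of them epidermal, showed the same direction, with 12 higher and 4 lower of 21 tested (median 0.61). Of its 33 genes 12 had no peak, among them Klk5, Klk6, Klk7, Klk11, Serpinb3a, Serpinb12 and Slpi. Serpinb2, a serpin of differentiating keratinocytes, stood at 13.9 and 23.5 normalised tags in the mTEC-I libraries and 371 and 411 in the mTEC-III libraries. Its groups were far apart (log2 change 4.35 ± 0.22, adjusted p = 5.41e-09). Klk13, a kallikrein-related peptidase gene, stood at 6.19 and 5.88 in mTEC-I against 109.8 and 105 in mTEC-III (log2 change 3.94 ± 0.45, adjusted p = 9.42e-06), its mTEC-I levels coming from 5 tags in all. Klk14, of the same gene family, had 2 tags in mTEC-I and 140.5 in mTEC-III, a ratio of 34.9 (95% exact interval 9.49 to 291, counting error only). In mTEC-IV Klk14 stood at 64.9 and 63.9, against 78.2 and 92.4 in mTEC-III, and Klk13 at 18.7 and 6.57. The gelatinase gene Mmp9 was lower, at 272 and 188 in mTEC-I against 79.5 and 87.7 in mTEC-III (log2 change -1.43 ± 0.17, adjusted p = 1.19e-05), as were Wfdc2, Serpinb1a and Cst3. Cst3 was not called without mTEC-III replicate 1.

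**Figure D2:**
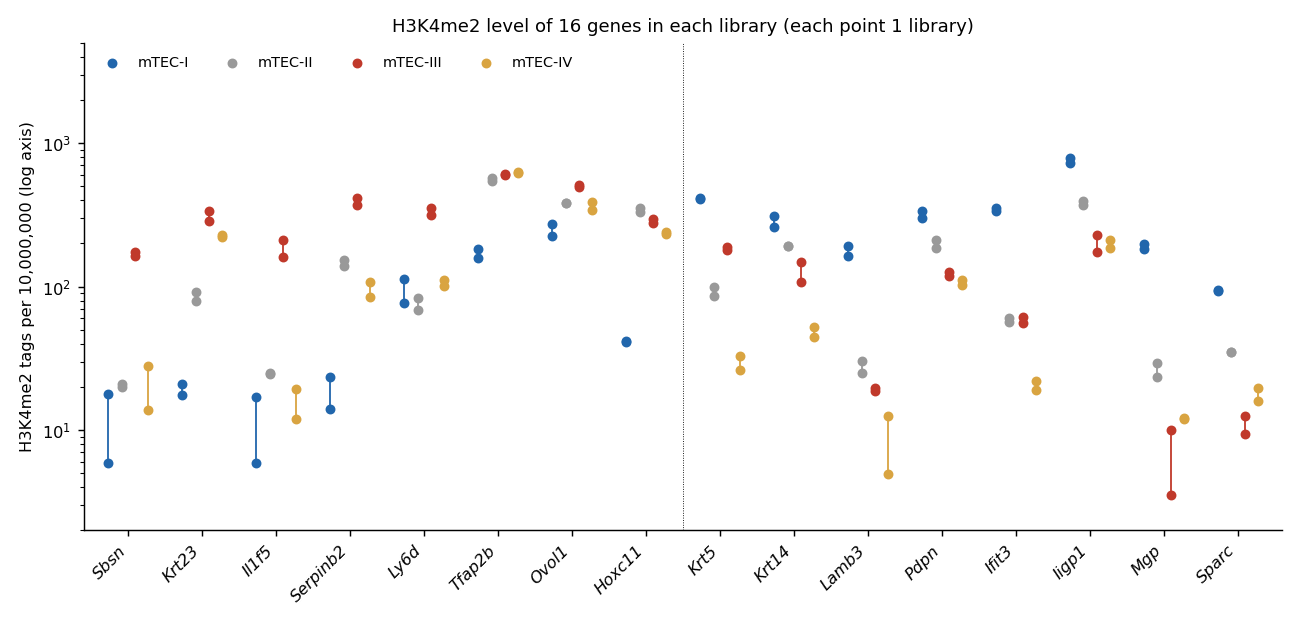
H3K4me2 level of 16 genes in each of the 8 libraries on a log axis, with mTEC-I in blue, mTEC-II in grey, mTEC-III in red and mTEC-IV in gold; each point is 1 library. Left of the dotted line both mTEC-III libraries lie above both mTEC-I libraries, and right of it below both. Ly6d, Sbsn and Il1f5 are highest in mTEC-III among the 4 populations, whereas Tfap2b and Hoxc11 are about as high in mTEC-II and mTEC-IV.

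Cell junction genes followed. Of 34 tested, 18 were higher and 2 lower (median 0.32). Gjb6, a connexin of stratified epithelium, stood at 135 and 123 in mTEC-I against 310.4 and 306 in mTEC-III (log2 change 1.25 ± 0.12, adjusted p = 2.12e-06). The desmoglein gene Dsg3 had 44.1 and 52.9 in mTEC-I against 103 and 88.9 in mTEC-III (log2 change 0.98 ± 0.24, adjusted p = 0.00552), and Cldn7, a claudin of tight junctions, had 107 and 162 in mTEC-I against 231 and 286 in mTEC-III (log2 change 0.96 ± 0.16, adjusted p = 0.000246). Dsg3 was not called without mTEC-III replicate 1. Gja1, the widely expressed connexin 43 gene, and Dsg2, the desmoglein of simple and basal epithelium, were lower, at 557 and 664 in mTEC-I against 435 and 483 in mTEC-III and at 628 and 699 in mTEC-I against 486 and 536 in mTEC-III. Over peaks within 20 kb of its start Gja1 changed by -0.10 (adjusted p = 0.554). It was not called without mTEC-III replicate 1 either. Most of these shifts were under 1 on the log2 scale, smaller than those of the cornified list. Over peaks within 2 kb of a start the count of higher junction genes was 8, and without mTEC-I replicate 1 the count of lower ones was 4.

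Basal genes showed the opposite. None of 22 tested genes of basal and junctional epithelium was higher and 14 were lower (median -0.46). The summed level of the list was 9194 and 9124 in mTEC-I and 6214 and 6896 in mTEC-III. Lamb3 encodes a chain of laminin 332, the anchor of basal cells in the basement membrane, and its intron peak stood at 164 and 191 normalised tags in the mTEC-I libraries and 19.6 and 18.8 in the mTEC-III libraries. The mTEC-I libraries were high and the mTEC-III libraries low with no overlap (log2 change -3.14 ± 0.37, adjusted p = 1.26e-05). Krt5, the basal keratin gene, stood at 413 and 408 in mTEC-I against 179.8 and 187 in mTEC-III (log2 change -1.16 ± 0.16, adjusted p = 5.11e-05), and its partner gene Krt14 at 262 and 308 in mTEC-I against 108 and 148 in mTEC-III (log2 change -1.16 ± 0.17, adjusted p = 7.52e-05). Both keratin genes kept more than 100 normalised tags in mTEC-III, while in mTEC-IV Krt5 stood at 32.99 and 26.3. Pdpn, the podoplanin gene used as a marker of junctional medullary cells, stood at 338 and 299.6 in mTEC-I against 119 and 126 in mTEC-III (log2 change -1.37 ± 0.13, adjusted p = 1.79e-06).

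Trp63, the master transcription factor gene of stratified epithelium, was not called as a whole, with 968 and 1002 in mTEC-I against 1077 and 1078 in mTEC-III over 10 peaks, but its peaks moved in different directions. It was chosen after its values were seen. The intron 1 peak at chr16:25750712-25754018 (mm9) stood at 30.9 and 29.4 in mTEC-I against 129 and 152 in mTEC-III (log2 change 2.18 ± 0.18, adjusted p = 1.45e-05), and a second intron 1 peak at chr16:25757427-25759963 stood at 30.9 and 17.6 in mTEC-I against 95.9 and 84.2 in mTEC-III (log2 change 1.90 ± 0.28, adjusted p = 0.000406). The tallest Trp63 peak, 2.8 kb from a start site inside the gene, was slightly lower, at 526 and 519.9 in mTEC-I against 430.2 and 447 in mTEC-III (log2 change -0.25 ± 0.08, adjusted p = 0.0308). The other 7 peaks were not called.

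Over the keratin genes as a family, 8 of 17 tested were higher and 3 lower, and 17 listed keratins had no peak. The lower ones were Krt5, Krt14 and Krt7. Besides Krt23 and Krt77, the genes Krt16 (14.7 and 5.88 in mTEC-I against 83.3 and 61.8 in mTEC-III) and Krt79 (23.2 and 2.94 in mTEC-I against 32.2 and 39.5 in mTEC-III) were higher, with adjusted p = 0.00769 and 0.0195. Without mTEC-I replicate 2 the change of Krt79 was 0.60 (adjusted p = 0.131), 3.22 without mTEC-I replicate 1, and neither Krt16 nor Krt79 was called by DESeq2 or without 1 or the other mTEC-III library. Over peaks within 2 kb of a start 3 keratin genes were higher and 4 lower, which turns the balance.

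Transcription factors of epithelial differentiation were higher more often than lower, by small amounts in most of those called. Of 36 tested, 17 were higher and 4 lower, with a median of 0.12. Tfap2b, an AP-2 factor gene, stood at 157 and 182 normalised tags in the mTEC-I libraries and 596 and 613 in the mTEC-III libraries. This was a clear step between the groups (log2 change 1.83 ± 0.09, adjusted p = 5.41e-09). Ovol1, a zinc finger gene that drives keratinocytes out of the cell cycle, stood at 274 and 226 in mTEC-I against 510.3 and 498 in mTEC-III (log2 change 1.01 ± 0.10, adjusted p = 3.45e-06), and its relative Ovol2 moved the other way, at 367 and 435 in mTEC-I against 191 and 241 in mTEC-III (log2 change -0.89 ± 0.12, adjusted p = 4.07e-05). Barx2, a homeobox gene, had 305 and 264 in mTEC-I against 539 and 583 in mTEC-III (log2 change 0.98 ± 0.09, adjusted p = 1.30e-06), and Elf5, an ETS factor gene of squamous and glandular epithelium, 34.8 and 52.9 in mTEC-I against 78.2 and 83.02 in mTEC-III (log2 change 0.89 ± 0.25, adjusted p = 0.0114). Elf5 was not called without 1 or the other mTEC-III library. Pparg, the lipid-sensing receptor gene, Id1, an inhibitor of helix-loop-helix factors, and Maf were lower. Maf was not called without mTEC-III replicate 1. Over peaks within 2 kb of a start the higher count of this list was 8. Among 22 AP-1 and immediate early genes the 2 higher ones, Fosl2 and Mafk, changed by 0.28 and 0.28, and the 3 lower ones were Nr4a1, Atf3 and Fosb, at -0.72, -0.44 and -0.42 (median of the list 0.00). These counts are no larger than the shares of all genes, 15.0% higher and 16.4% lower, would give. Without mTEC-I replicate 1 Fosl2 changed by 0.16 and was not called. Mafk was not called either, nor was Fosl2 without mTEC-III replicate 2.

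**Figure D3:**
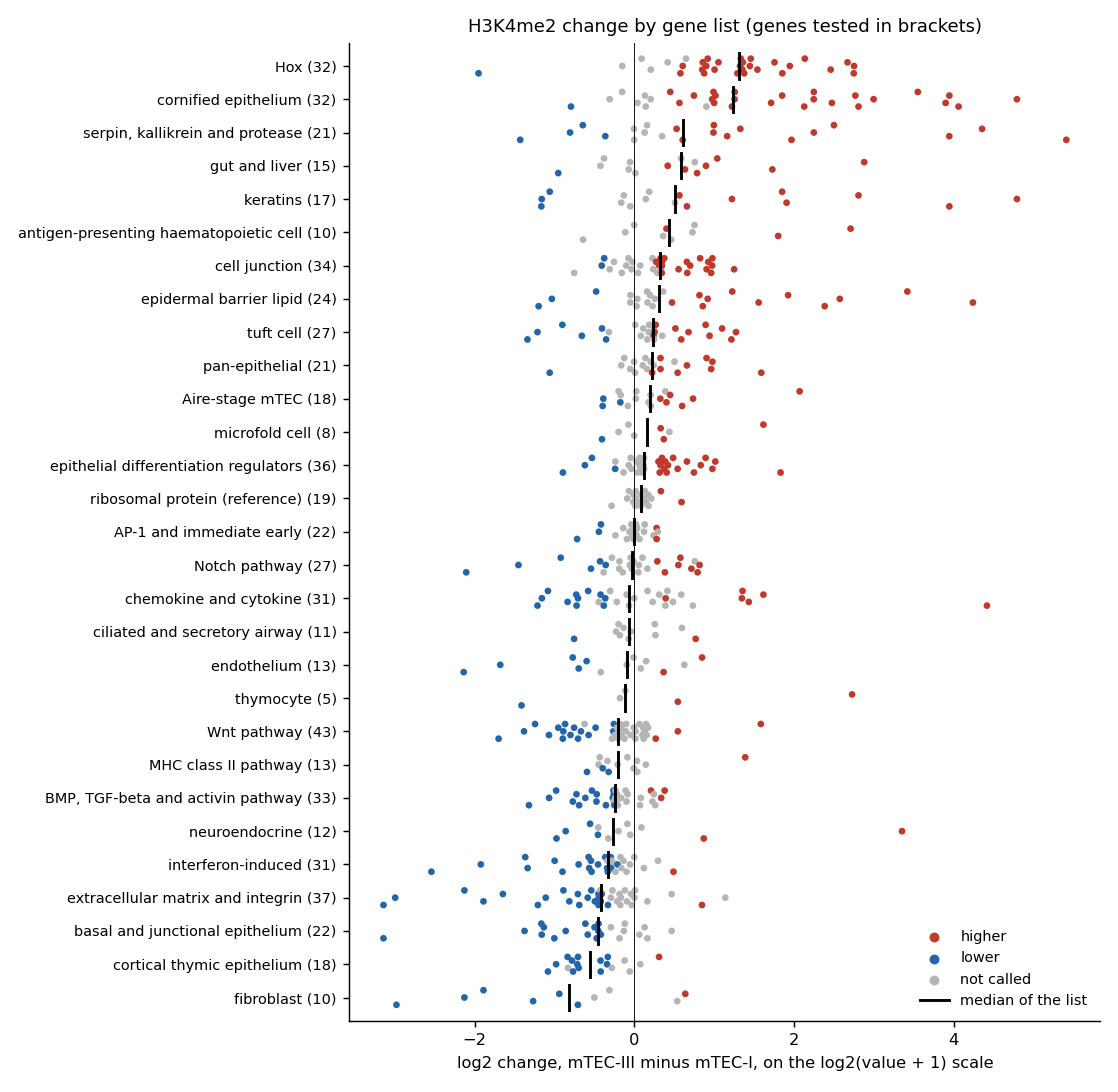
Log2 change of every tested gene of 29 gene lists (x axis, mTEC-III minus mTEC-I on the log2(value + 1) scale), 1 point a gene, ordered by the list's median (black bar), with called genes in red or blue. The Hox and cornified lists have the highest medians, 1.31 and 1.24, and the fibroblast list the lowest, -0.82; lists share some genes.

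Extracellular matrix and integrin genes were lower more often than higher. Of 37 tested, 1 was higher and 20 were lower (median -0.42). Sparc encodes a secreted glycoprotein that binds collagen and stood at 93.6 and 94.00 normalised tags in the mTEC-I libraries and 12.6 and 9.42 in the mTEC-III libraries. Both mTEC-III libraries were far below both mTEC-I libraries (log2 change -2.99 ± 0.32, adjusted p = 4.51e-06). Col6a1 and Col6a2, neighbouring genes of collagen VI chains, stood at 211 and 220.3 in mTEC-I against 61.2 and 54.2 in mTEC-III (log2 change -1.89 ± 0.17, adjusted p = 1.14e-06) and at 121 and 141 in mTEC-I against 32.2 and 26.5 in mTEC-III (log2 change -2.13 ± 0.25, adjusted p = 1.07e-05). Itgb8, an integrin chain that activates TGF-beta, was the one higher member, at 409 and 473 in mTEC-I against 810.0 and 774 in mTEC-III (log2 change 0.85 ± 0.09, adjusted p = 5.34e-06), and without mTEC-I replicate 1 there were 4.

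Markers of fibroblasts moved the same way, but this list also holds Col6a1 and Col6a2, so the lower counts of both lists share these genes. Of 16 fibroblast markers, 10 had a peak, and 6 of these were lower and 1 was higher (median -0.82). Their summed level was 1362 and 1434 in mTEC-I and 768 and 869 in mTEC-III. Dcn, the decorin gene, stood at 71.96 and 103 in mTEC-I against 10.7 and 9.42 in mTEC-III (log2 change -2.98 ± 0.35, adjusted p = 1.14e-05), and Pdgfra, a growth factor receptor of mesenchyme, at 305 and 414 in mTEC-I against 132 and 164 in mTEC-III (log2 change -1.27 ± 0.15, adjusted p = 1.02e-05). Fap was higher, at 140.1 and 147 in mTEC-I against 208 and 241 in mTEC-III. The listed markers Col1a2, Col3a1, Lum, Twist2, Dpt and Postn had no merged peak, so their levels are not known. Pdgfrb and Thy1 stood below 24 in all 4 libraries. The part of such cells in the matrix result was not tested.

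The lower genes of largest change held several stromal genes too. Mgp, the gene of matrix Gla protein, an inhibitor of calcification, had 1 peak in its intron 1 at chr6:136822388-136824600 (mm9), which stood at 184 and 197 normalised tags in the mTEC-I libraries and 10.1 and 3.53 in the mTEC-III libraries. Both mTEC-III libraries were at or below 10.1, and replicate 2 was at its floor of 3 tags, with the mTEC-I libraries far above (log2 change -4.76 ± 0.41, adjusted p = 5.46e-07). Tagln, the actin-binding transgelin gene of smooth muscle, stood at 119.9 and 162 in mTEC-I against 7.57 and 10.6 in mTEC-III (log2 change -3.81 ± 0.37, adjusted p = 1.96e-06), its peak lying at chr9:45742723-45744893. Serpinh1 encodes a chaperone of collagen folding and had 238 and 264 in mTEC-I against 44.8 and 55.4 in mTEC-III (log2 change -2.31 ± 0.16, adjusted p = 8.60e-08). The remaining genes named for a large fall below mTEC-I were 4930533N22Rik, G0s2, Tgtp1, Hcrtr2, Nynrin, Slc27a3 and Slc12a4, with changes of -3.26 to -2.27. Tgtp1 has a near-identical copy, so its reads may be shared. The single peak given to 4930533N22Rik lay farther than 20 kb from its start.

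Interferon-induced genes were lower. Of 31 tested, 18 were lower and 1 was higher (median -0.33), and the summed level was 10479.6 and 10173 in mTEC-I and 7336 and 7678 in mTEC-III. In mTEC-II the sums were 7183 and 7257 and in mTEC-IV 7350 and 7404, near those of mTEC-III. By this sum mTEC-I was the population that stood apart. Ifit3, which encodes an RNA-binding antiviral protein, stood at 353 and 335 normalised tags in the mTEC-I libraries and 55.5 and 61.2 in the mTEC-III libraries. No library of one group came near the other (log2 change -2.54 ± 0.19, adjusted p = 2.08e-07). Iigp1, an interferon-induced GTPase gene, stood at 785 and 731 in mTEC-I against 174 and 228 in mTEC-III over 4 peaks (log2 change -1.92 ± 0.12, adjusted p = 4.12e-08). Mx1, an antiviral dynamin-like GTPase gene, stood at 351 and 244 in mTEC-I against 97.8 and 131 in mTEC-III (log2 change -1.36 ± 0.19, adjusted p = 4.73e-05), and Ifit2 at 361 and 382 in mTEC-I against 141 and 152 in mTEC-III (log2 change -1.33 ± 0.13, adjusted p = 2.35e-06). The higher gene was Ifi27, at 74.3 and 64.6 in mTEC-I against 93.4 and 102 in mTEC-III (adjusted p = 0.0461), which edgeR, DESeq2, voom and the fits without 1 or the other mTEC-III library did not call. Ifit genes have near-identical copies, and their counts may share reads. Without mTEC-III replicate 1 the lower count was 11, and without mTEC-I replicate 1 the higher count was 3.

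Many of these genes are known for an interferon-stimulated response element in front of their start. The 250 bases upstream of 2 of them are printed as above, with GAAA, any 2 bases and GAAA, or on the other strand TTTC, any 2 bases and TTTC, in capitals, beside that of Krt14, a lower basal gene that holds neither this string nor TGANTCA. The GRCm38.p6 windows are chr19:34583279-34583528 on the plus strand for Ifit3, and chr12:26456453-26456702 for Rsad2 and chr11:100206031-100206280 for Krt14 on the minus strand.
Ifit3: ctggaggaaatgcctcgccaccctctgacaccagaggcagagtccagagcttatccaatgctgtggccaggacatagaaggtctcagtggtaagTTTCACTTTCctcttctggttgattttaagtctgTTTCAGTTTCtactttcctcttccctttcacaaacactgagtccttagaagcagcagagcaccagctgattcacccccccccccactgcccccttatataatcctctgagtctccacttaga
Rsad2: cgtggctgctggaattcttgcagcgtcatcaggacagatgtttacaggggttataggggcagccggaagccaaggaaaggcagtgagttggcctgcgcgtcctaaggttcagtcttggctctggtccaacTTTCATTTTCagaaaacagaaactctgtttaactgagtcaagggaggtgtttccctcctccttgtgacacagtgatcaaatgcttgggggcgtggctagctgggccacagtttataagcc
Krt14: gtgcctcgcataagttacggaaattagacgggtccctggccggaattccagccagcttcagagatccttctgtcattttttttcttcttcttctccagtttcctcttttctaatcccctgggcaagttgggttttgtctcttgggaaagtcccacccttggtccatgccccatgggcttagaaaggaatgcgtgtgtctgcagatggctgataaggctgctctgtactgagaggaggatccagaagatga
Of the 18 lower interferon genes, 13 had a RefSeq promoter in the table, and 7 of these (53.8%) hold the string, against 3.46% of all promoters and 1 of the 17 higher cornified genes. The AP-1 string was in 6 of the 13 (46.2%).

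Cortical thymic epithelial genes, which include regulators shared by all thymic epithelium, were lower: 12 of 18 against 1 higher (median -0.56). Cxcl12, a chemokine gene that draws thymocyte precursors, stood at 323 and 306 in mTEC-I against 129 and 169.6 in mTEC-III (log2 change -1.08 ± 0.13, adjusted p = 1.85e-05). Il7, the cytokine gene that early thymocytes depend on, stood at 1462 and 1425 normalised tags in the mTEC-I libraries and 749 and 873 in the mTEC-III libraries. Both mTEC-I libraries were the higher ones (log2 change -0.83 ± 0.07, adjusted p = 6.04e-07), and mTEC-II stood near mTEC-III, at 896 and 884. Pax1, a transcription factor gene of the pharyngeal pouch, had 700.3 and 640.4 in mTEC-I against 379.8 and 399.8 in mTEC-III (log2 change -0.78 ± 0.09, adjusted p = 9.66e-06). Tbata was the higher one, by 0.31 (adjusted p = 0.0308), and edgeR, DESeq2, voom and the fits without 1 or the other mTEC-III library did not call it. Over peaks within 2 kb of a start the lower count was 5.

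Genes of the Aire stage and of antigen presentation were called in both directions. Of 18 Aire-stage genes tested, 6 were higher and 3 lower. No peak was given to Aire itself. Fezf2, the transcription factor gene that controls tissue antigens beside Aire, stood at 1148 and 1219 normalised tags in the mTEC-I libraries and 1945 and 1998 in the mTEC-III libraries. The groups were well apart (log2 change 0.74 ± 0.06, adjusted p = 1.90e-07), with mTEC-II at 1878 and 1847. Over peaks within 20 kb of its start Fezf2 changed by only 0.20 (adjusted p = 0.0434). Ccr7, a chemokine receptor gene, stood at 13.9 and 2.94 in mTEC-I against 29.02 and 33.6 in mTEC-III (log2 change 2.07 ± 0.48, adjusted p = 0.00352), below its mTEC-II level of 76.9 and 76.6. Without mTEC-I replicate 2 its change was 1.109, and with a pseudocount of 20 it was 0.88. The costimulatory gene Cd40 (231 and 244 in mTEC-I against 156 and 210.2 in mTEC-III) and the PD-1 ligand genes Pdcd1lg2 and Cd274 were lower by at most 0.40 on the log2 scale. Without mTEC-III replicate 1 none of the 3 was called, and the changes of Cd40 and Pdcd1lg2 were -0.18 and -0.24. Without mTEC-III replicate 2 that of Cd40 was -0.60. In the MHC class II pathway 1 of 13 was higher and 3 were lower. Over all genes 15.0% were higher and 16.4% lower, and counts this small cannot be told apart from those shares. The higher one was H2-Eb2, at 51.1 and 41.1 in mTEC-I against 112 and 132 in mTEC-III (log2 change 1.39 ± 0.17, adjusted p = 1.37e-05), and the lower ones were H2-DMb2, Cd74 and H2-Aa, at -0.59, -0.39 and -0.32. Without mTEC-III replicate 1, 1 of the list was called lower, and Cd74 and H2-Aa changed by -0.24 and -0.20. Without mTEC-I replicate 2 Cd74 changed by -0.25 and was not called.

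Ligands, receptors and inhibitors of 3 signalling pathways were compared. In Notch signalling, where a ligand on one cell triggers release of the receptor's inner domain in its neighbour, 7 of 27 genes were higher and 6 lower. Among ligands, Jag2 stood at 210.5 and 206 in mTEC-I against 75.7 and 75.4 in mTEC-III (log2 change -1.45 ± 0.13, adjusted p = 8.55e-07) and Dll3 at 137 and 88.1 in mTEC-I against 22.7 and 27.1 in mTEC-III (log2 change -2.10 ± 0.28, adjusted p = 3.20e-05), both lower, while Jag1, Dll1 and Dll4 were not called. Among receptors, Notch2 stood at 862 and 814 normalised tags in the mTEC-I libraries and 1392 and 1361 in the mTEC-III libraries. Both mTEC-III libraries were higher (log2 change 0.72 ± 0.06, adjusted p = 8.52e-07) than any mTEC-II or mTEC-IV library. Notch3 was also higher, by 0.29, and Notch1 was not called. Of the regulators, Dtx2 had 195 and 206 in mTEC-I against 331 and 379 in mTEC-III (log2 change 0.82 ± 0.11, adjusted p = 4.39e-05), the coactivator gene Maml2 and the fringe gene Lfng were lower, and the fringe gene Mfng was higher with adjusted p = 0.0467, a call that edgeR, DESeq2, voom and the fits without 1 or the other mTEC-III library did not make. The change of Mfng was 0.79, and 0.52 without mTEC-I replicate 2. With either mTEC-III library left out, 4 Notch genes were higher.

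Wnt signalling genes, whose secreted ligands act through Frizzled receptors and beta-catenin, were lower in 16 of 43 and higher in 3 (median -0.20). Of the ligands, Wnt6 stood at 167 and 199.8 in mTEC-I against 76.3 and 98.3 in mTEC-III (log2 change -1.07 ± 0.16, adjusted p = 0.00011). Of the receptors, Fzd2 stood at 467 and 447 in mTEC-I against 169 and 219 in mTEC-III (log2 change -1.24 ± 0.12, adjusted p = 2.31e-06). Of the inhibitors, Kremen2, a coreceptor for Dickkopf proteins, stood at 160.2 and 159 in mTEC-I against 51.7 and 45.3 in mTEC-III (log2 change -1.70 ± 0.18, adjusted p = 3.71e-06) and Dkk3 at 78.9 and 38.2 in mTEC-I against 18.3 and 22.96 in mTEC-III (log2 change -1.38 ± 0.35, adjusted p = 0.00623), whereas Dkk1 was higher at 40.2 and 11.8 in mTEC-I against 64.98 and 70.7 in mTEC-III (log2 change 1.58 ± 0.37, adjusted p = 0.0038). The mTEC-I libraries differed from each other for Dkk1, which was not called without mTEC-III replicate 2. Without mTEC-I replicate 1 the changes of Dkk1 and Dkk3 were 2.43 and -0.87, and without mTEC-I replicate 2 that of Dkk1 was 0.74. Tcf7 was higher by 0.55, by 0.86 without mTEC-I replicate 1 and by 0.23 (adjusted p = 0.0994) without mTEC-I replicate 2. It was not called without 1 or the other mTEC-III library, and Dkk3 was not called without mTEC-III replicate 1. Lrp6 was higher by 0.27 and was not called by edgeR, DESeq2 or voom. Of the 3 higher genes, 1 was called without mTEC-III replicate 1 and none without replicate 2.

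BMP, TGF-beta and activin genes were lower in 15 of 33 and higher in 3 (median -0.24). The ligand gene Bmp4 stood at 112 and 149.8 in mTEC-I against 54.9 and 77.7 in mTEC-III (log2 change -0.98 ± 0.20, adjusted p = 0.00169). The secreted BMP antagonist genes Nog and Chrd were lower as well, Nog at 189.6 and 191 in mTEC-I against 59.3 and 96.6 in mTEC-III (log2 change -1.32 ± 0.19, adjusted p = 6.57e-05) and Chrd at 217 and 144 in mTEC-I against 119.9 and 88.9 in mTEC-III (log2 change -0.77 ± 0.19, adjusted p = 0.0053). Fstl1, a follistatin-like gene, had 164 and 199.8 in mTEC-I against 89.6 and 82.4 in mTEC-III (log2 change -1.07 ± 0.15, adjusted p = 5.09e-05). The activin receptor gene Acvr2a was higher by 0.38 over 8 peaks, and over its peaks within 20 kb of the start its change was -0.12. Smad1 and Ltbp2 were higher by 0.21 and 0.34. Without mTEC-I replicate 1 the changes of Chrd, Acvr2a and Smad1 were -0.48, 0.22 and 0.13. None of the 3 was called without mTEC-III replicate 2. That of Ltbp2 was 0.22 without mTEC-I replicate 2 and 0.21 without mTEC-III replicate 2, and was then not called. Without mTEC-III replicate 2 none of these genes was called higher, and without mTEC-I replicate 1 the count was 6.

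Chemokine and cytokine genes were lower in 11 and higher in 6 of 31 (median -0.07). Il1f6 and Il1f9, the older symbols of a pair of interleukin-36 genes of epithelium, were among the higher ones, Il1f6 at 4.64 and 5.88 in mTEC-I against 121 and 144 in mTEC-III (log2 change 4.42 ± 0.43, adjusted p = 2.06e-06) and Il1f9 at 50.3 and 88.1 in mTEC-I against 158 and 208 in mTEC-III (log2 change 1.43 ± 0.24, adjusted p = 0.000303). The change of Il1f6 was 2.59 with a pseudocount of 20, as its mTEC-I levels rest on 4 tags. Cxcl2, a neutrophil chemokine gene, stood at 152 and 182 in mTEC-I against 401 and 454 in mTEC-III (log2 change 1.36 ± 0.11, adjusted p = 3.60e-07), and Il1rn, the interleukin-1 receptor antagonist gene, at 161 and 156 in mTEC-I against 379.8 and 430.4 in mTEC-III (log2 change 1.35 ± 0.12, adjusted p = 9.51e-07). Ccl20, which draws cells that carry Ccr6, had 13.9 and 17.6 in mTEC-I against 48.6 and 51.8 in mTEC-III (log2 change 1.62 ± 0.31, adjusted p = 0.00079). The single peak given to Ccl20 lay farther than 20 kb from its start. In all 5 both mTEC-III libraries were above both mTEC-I libraries. Among the lower genes Cxcl14, an epithelial chemokine gene, stood at 92.9 and 118 in mTEC-I against 48.6 and 44.2 in mTEC-III (log2 change -1.16 ± 0.23, adjusted p = 0.00128) and Il25, a cytokine gene of tuft cells, at 23.2 and 41.1 in mTEC-I against 13.9 and 11.8 in mTEC-III (log2 change -1.21 ± 0.33, adjusted p = 0.0097). Il25 was not called without mTEC-III replicate 2.

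Hox genes, which pattern the body axis, carried more H3K4me2 in mTEC-III in all 4 clusters. Of 32 with a peak, 26 were higher and 1 was lower (median 1.31). By cluster 7 of 9 Hoxa, 7 of 9 Hoxb, 7 of 7 Hoxc and 5 of 7 Hoxd genes were higher. Hoxc11 stood at 41.8 and 41.1 normalised tags in the mTEC-I libraries and 276 and 294 in the mTEC-III libraries. Every mTEC-III value was several-fold above every mTEC-I value (log2 change 2.75 ± 0.12, adjusted p = 2.39e-09). Hoxb4 stood at 54.9 and 35.2 in mTEC-I against 245 and 248 in mTEC-III (log2 change 2.46 ± 0.18, adjusted p = 1.26e-07) and Hoxd10, from 3.5 tags in mTEC-I, at 3.87 and 5.88 in mTEC-I against 30.3 and 42.4 in mTEC-III (log2 change 2.67 ± 0.41, adjusted p = 0.000142). Hoxa6 was called from 19.4 and 0 in mTEC-I against 40.4 and 21.2 in mTEC-III (adjusted p = 0.0259), and edgeR, DESeq2 and the fits without mTEC-I replicate 2 or 1 or the other mTEC-III library did not call it. Its change was 2.75, 4.92 without mTEC-I replicate 1 and 0.57 without mTEC-I replicate 2. The lower gene was Hoxa2, the most anterior gene of its cluster with a peak, at 1093 and 969 normalised tags in the mTEC-I libraries and 232 and 305 in the mTEC-III libraries. Both mTEC-I libraries were above 960 and both mTEC-III libraries below 310 (log2 change -1.95 ± 0.11, adjusted p = 2.45e-08). The mTEC-III level of Hoxc11 was not the highest of the populations, since it stood at 355 and 331 in mTEC-II and at 239.7 and 231 in mTEC-IV.

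Markers of other cell programmes were mixed. Of 27 tuft cell genes 11 were higher and 6 lower. Hmx2, a homeobox gene, stood at 86.7 and 135 in mTEC-I against 247 and 281 in mTEC-III (log2 change 1.27 ± 0.16, adjusted p = 1.76e-05), and Gfi1b, a repressor gene of tuft and blood cells, at 30.2 and 32.3 in mTEC-I against 58.7 and 78.9 in mTEC-III (log2 change 1.10 ± 0.20, adjusted p = 0.000465), below its mTEC-IV level of 316 and 339.9. Pou2f3, the master factor gene of tuft cells, which was named after its values were seen, had 343 and 314 in mTEC-I against 626 and 596 in mTEC-III (log2 change 0.89 ± 0.09, adjusted p = 2.76e-06). Its tallest peak stood at 358 and 356 in mTEC-III and at 972 and 1032 in mTEC-IV. Of the lower genes, the lipoxygenase gene Alox5 stood at 195 and 135 in mTEC-I against 63.7 and 63.6 in mTEC-III (log2 change -1.34 ± 0.16, adjusted p = 1.80e-05) and Dclk1 at 513 and 535 in mTEC-I against 334 and 330.3 in mTEC-III (log2 change -0.66 ± 0.08, adjusted p = 1.12e-05). Over peaks within 20 kb of its start Alox5 changed by -0.59 and was not called. The count of higher tuft genes was 7 without mTEC-III replicate 1 and 5 without replicate 2. Of 15 gut and liver genes 7 were higher and 1 was lower. Foxa1, a pioneer factor gene of endoderm, stood at 424 and 394 normalised tags in the mTEC-I libraries and 807 and 875 in the mTEC-III libraries. Both mTEC-III libraries had about double the mTEC-I level (log2 change 1.04 ± 0.07, adjusted p = 1.00e-07). Foxa1 stood at 865 and 904 in mTEC-IV. Cdx1, an intestinal homeobox gene, stood at 59.6 and 96.9 in mTEC-I against 230.2 and 281 in mTEC-III (log2 change 1.73 ± 0.17, adjusted p = 2.06e-06). It was higher still in mTEC-II, at 407 and 413, and in mTEC-IV, at 472 and 498. Vil1, the villin gene, was called from 4.5 tags in mTEC-I, at 6.96 and 0 in mTEC-I against 18.9 and 20.6 in mTEC-III. The change of Vil1 was 2.88, 4.37 without mTEC-I replicate 1 and 1.38 without mTEC-I replicate 2. Afp, the alpha-fetoprotein gene, was lower at 40.2 and 38.2 in mTEC-I against 17.03 and 22.96 in mTEC-III. It was not called without mTEC-III replicate 1.

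Neuroendocrine genes were lower in 4 and higher in 2 of 12. Isl1, a LIM homeobox gene of endocrine and neural cells, stood at 1907 and 1701 normalised tags in the mTEC-I libraries and 835 and 1006 in the mTEC-III libraries. The groups did not overlap (log2 change -0.97 ± 0.08, adjusted p = 3.88e-07). Other lower genes were less firm. Snap25 changed by -0.45, by -0.18 without mTEC-I replicate 2 and by 2.39 over peaks within 20 kb of its start. Ret changed by -0.55, and by -0.38 without mTEC-I replicate 1. Chga, the chromogranin A gene, had 2 tags in mTEC-I, both in replicate 2, and 59.5 in mTEC-III, a ratio of 14.8 (95% exact interval 3.92 to 125, counting error only). It was not called without mTEC-III replicate 2. Without mTEC-III replicate 1, 2 genes of the list were lower. Of 8 microfold cell genes 3 were higher and 1 lower, and of 11 genes of ciliated and secretory airway cells 1 was higher and 1 lower. Over all genes 15.0% were higher and 16.4% lower, so counts this small say little about these lists. Without mTEC-I replicate 1, 3 airway genes were higher.

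Of the lists of markers of blood and vessels, 5 of 17 thymocyte genes had a peak, of which 2 were higher and 1 was lower, and Cd3d, Cd3e, Cd3g, Cd4, Cd8a, Rag1 and Rag2 had none. Endothelial genes were higher in 2 and lower in 5 of 13, led by Sox18 at 116 and 156 in mTEC-I against 26.5 and 33.6 in mTEC-III (log2 change -2.14 ± 0.25, adjusted p = 1.08e-05), with summed levels of 2181 and 2086 in mTEC-I and 1827 and 1986 in mTEC-III. Antigen-presenting haematopoietic cell genes were higher in 3 of 10 and lower in none, with sums of 689 and 673 and 825 and 871. Itgax stood at 15.5 and 35.2 in mTEC-I against 93.4 and 75.95 in mTEC-III, and Ptprc at 34.05 and 35.2 in mTEC-I against 34.1 and 30.03 in mTEC-III. Itgax was not called without mTEC-III replicate 1, and its single peak lay farther than 20 kb from its start. Without mTEC-III replicate 1, 1 gene of this list was higher. The part of such cells in the results was not tested. Ribosomal protein genes, taken as a reference, were higher in 2 of 19 and lower in none, against 15.0% higher and 16.4% lower of all genes.

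The higher genes of largest change outside the lists included Gsta2, a glutathione transferase gene, at 16.2 and 0 in mTEC-I against 179 and 219 in mTEC-III (log2 change 5.58 ± 0.80, adjusted p = 6.84e-05). Hal, the histidine ammonia-lyase gene whose product makes the urocanic acid of skin, stood at 9.29 and 0 in mTEC-I against 132 and 101 in mTEC-III (log2 change 5.18 ± 0.70, adjusted p = 4.00e-05). Slc5a1, the intestinal sodium-glucose transporter gene, had 13.9 and 11.8 in mTEC-I against 233 and 244 in mTEC-III (log2 change 4.12 ± 0.24, adjusted p = 2.53e-08). In Gsta2 and Hal the mTEC-I replicate 2 library was at 0, where up to 17.6 is allowed, and their changes were 3.02 and 2.49 with a pseudocount of 20. Without that library the change of Gsta2 was 3.53. Adgrg7, an adhesion receptor gene of gut, stood at 12.4 and 26.4 in mTEC-I against 321 and 330.3 in mTEC-III (log2 change 4.09 ± 0.30, adjusted p = 1.17e-07). The single peak given to Adgrg7 lay farther than 20 kb from its start and may belong to another gene. The unnamed transcripts 1810064F22Rik and 1810013A23Rik were higher by 4.53 and 4.10. The first stood at 0 in mTEC-I replicate 2, and its change was 2.10 without that library, 6.95 without mTEC-I replicate 1 and 2.52 by edgeR.

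At the level of single peaks, the largest gain by the naming rule was in intron 1 of Sbsn at chr7:31537791-31540581 (mm9), with 4.64 and 0 in mTEC-I against 126 and 121 in mTEC-III (log2 change 5.71 ± 0.72, adjusted p = 0.000173). A peak in an intron of Ccr4, a chemokine receptor gene, at chr9:114403605-114406455 stood at 5.42 and 0 in mTEC-I against 98.4 and 108 in mTEC-III (log2 change 5.36 ± 0.62, adjusted p = 9.40e-05). The largest losses after the Mgp and Tagln peaks included an intergenic site on chromosome 9 at chr9:41134215-41137791, 48.6 kb from the start of 3110039I08Rik, with 281 and 311 in mTEC-I against 27.8 and 27.1 in mTEC-III (log2 change -3.38 ± 0.18, adjusted p = 1.28e-06). A peak in an intron of Plekha7, a gene of the adherens junction, at chr7:123327895-123330333 stood at 193 and 120.4 in mTEC-I against 13.2 and 21.8 in mTEC-III (log2 change -3.09 ± 0.39, adjusted p = 0.000174). Both gains were sites near the floor in mTEC-I and both losses sites with over 100 normalised tags in both mTEC-I libraries. The naming rule favours this, since it asks for a mean of at least 100 in the higher population and ranks by log2 change.

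Of 3068 genes with at least 3 tested peaks, 1727 had a higher peak, 1242 a lower one and 552 both. Fezf2 had 7 of 8 peaks higher and none lower. Its peak at chr14:13235700-13242126 (mm9), inside an intron of the neighbouring gene, stood at 74.3 and 91.1 in mTEC-I against 285 and 328 in mTEC-III (log2 change 1.88 ± 0.15, adjusted p = 8.45e-06), while the peak 1.3 kb from the start changed little, at 759 and 719.7 in mTEC-I against 849.7 and 847 in mTEC-III (log2 change 0.20 ± 0.07, adjusted p = 0.0416). Nsmce2, a SUMO ligase subunit gene, had 9 of 10 peaks higher and Rassf3 8 of 11. Over peaks within 20 kb of its start Nsmce2 was not called (change 0.43, adjusted p = 0.116). In the other direction Isl1 had 6 of 8 peaks lower, with 75.1 and 88.1 in mTEC-I against 10.1 and 11.2 in mTEC-III at the one 107.9 kb from the start (log2 change -2.82 ± 0.31, adjusted p = 6.93e-05), and Rgs3 5 of 7. Pde4b, a cyclic AMP phosphodiesterase gene with several start sites, had 4 peaks higher and 4 lower of 14, and its sum was not called. Ano6 and Nav2 each had 3 higher and 3 lower of 11. The Pou2f3 locus, picked after its values were seen, had 5 of 6 peaks higher, the tallest of them in intron 1 at chr9:43001073-43014823 with 166 and 144 in mTEC-I against 358 and 356 in mTEC-III (log2 change 1.20 ± 0.11, adjusted p = 2.32e-05).

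**Figure D4:**
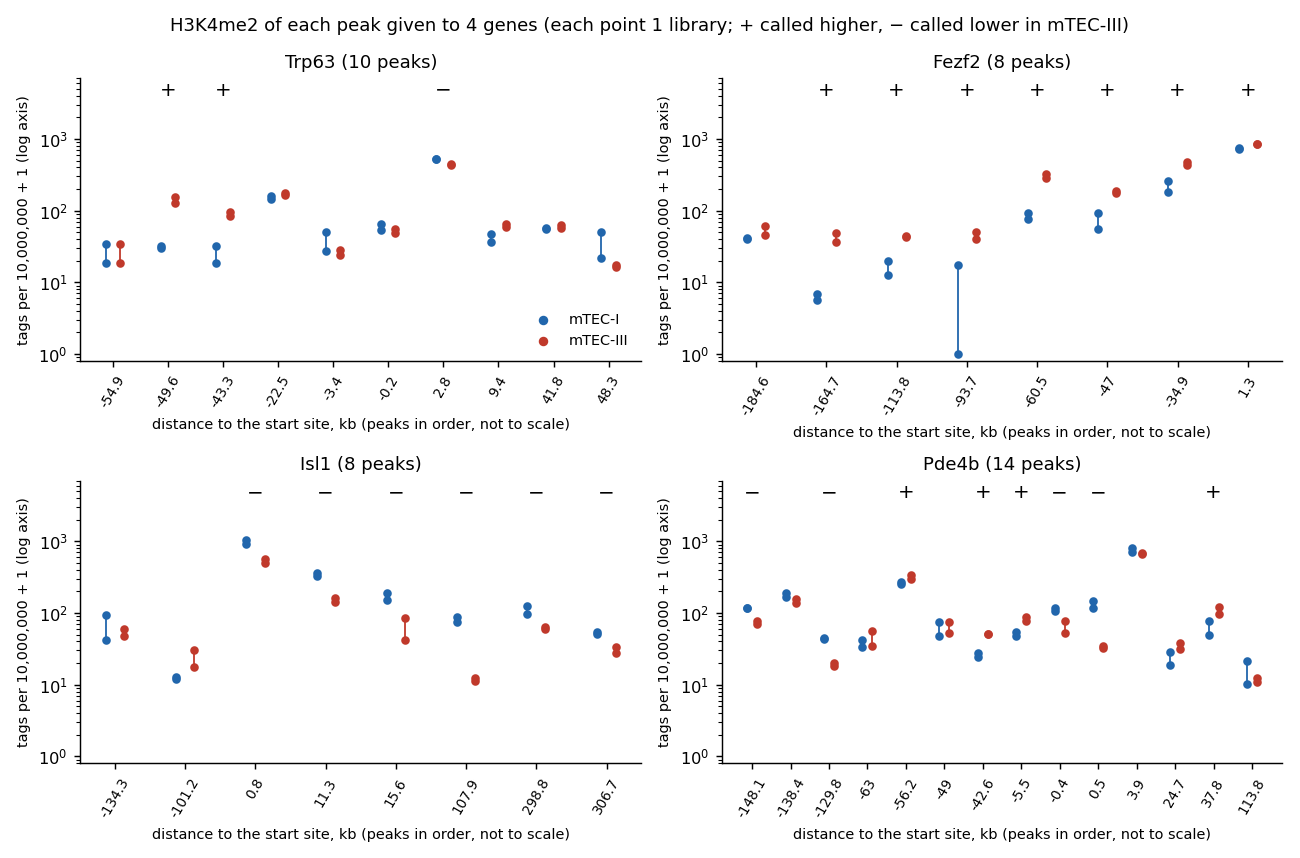
H3K4me2 of each peak of Trp63, Fezf2, Isl1 and Pde4b as normalised tags + 1 on a log axis, 1 point a library, mTEC-I in blue and mTEC-III in red, with peaks ordered by distance to the gene's nearest start site in kb and + or − above a called peak. All 7 called Fezf2 peaks are higher and the least changed of them is the one nearest the start, all called Isl1 peaks are lower, and Trp63 and Pde4b hold peaks of both directions.

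The changes differed by place in the genome. Within 1 kb of a start site 8.24% of 11330 peaks were higher and 14.8% lower. From 5 to 20 kb away 25.4% of 5194 were higher and 10.8% lower. The share of higher peaks was above that of lower peaks in every class beyond 1 kb and below it within 1 kb, and this order held by edgeR, with a pseudocount of 20 and without mTEC-I replicate 2. With cyclic loess it held in every class but that over 100 kb (16.2% higher, 16.7% lower). Promoter peaks are taller, so the classes were also compared within bands of mean level: from 100 to 200 normalised tags 5.53% were higher and 12.6% lower within 1 kb, against 20.6% higher and 17.5% lower farther away. Over 200 the shares were 8.58% higher and 12.2% lower within 1 kb, against 19.7% and 16.6%, so that in these bands lower peaks too were a larger share away from start sites. From 25 to 50 and from 50 to 100 the lower shares were larger within 1 kb (22.4% and 24.1%) than farther away (12.2% and 17.6%). Among peaks up to 25 normalised tags the shares of higher peaks were 28.0% within 1 kb and 24.6% farther away. These bands and settings were chosen after seeing the data. Which peaks entered the table also differs by population, since the authors' list for mTEC-I holds 7034 peaks and that for mTEC-III 19320, and the mTEC-III libraries were the deeper ones. Of the merged peaks in the mTEC-I list 98.9% were also in the mTEC-III list, and these were 35.9% of the latter. The part of depth in these lists was not tested.

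**Figure D5:**
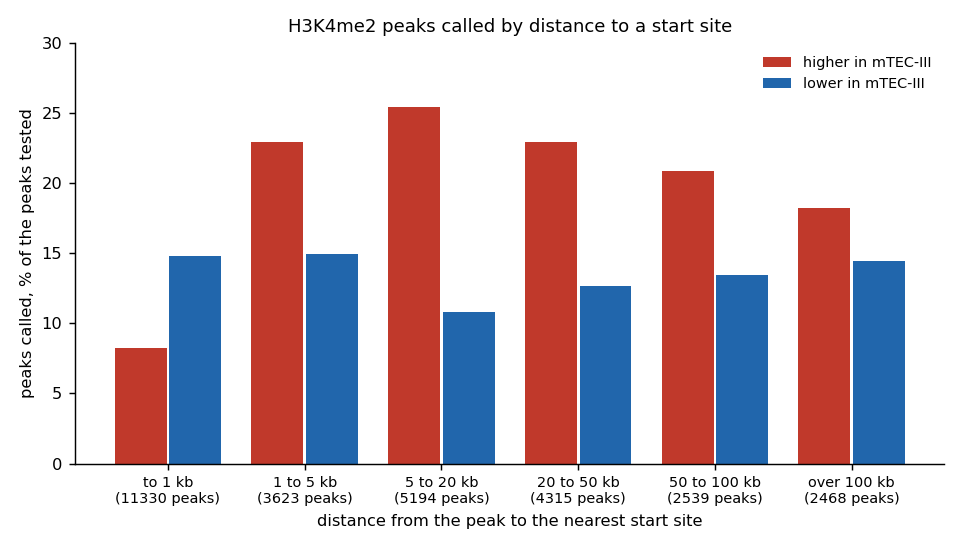
Share of tested peaks called higher (red) or lower (blue) in mTEC-III, in % (y axis, from 0), by distance to the nearest start site (x axis, number of peaks in brackets). Within 1 kb 8.24% were higher and 14.8% lower, and from 5 to 20 kb 25.4% were higher and 10.8% lower.

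Peaks of microRNA genes were compared because these short RNAs act through a seed of bases 2 to 8 that pairs with target transcripts. Of 393 microRNA genes with a peak, 101 (25.7%) were higher and 82 (20.9%) lower, against 15.0% and 16.4% of all genes. The mature sequences of those described are printed from RefSeq (GRCm38.p6), 5′ to 3′, with the seed in capitals.
mmu-miR-203-3p: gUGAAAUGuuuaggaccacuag
mmu-miR-205-5p: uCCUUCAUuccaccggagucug
mmu-miR-10b-5p: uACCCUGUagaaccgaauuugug
mmu-miR-196b-5p: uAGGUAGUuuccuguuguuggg
mmu-miR-125b-5p: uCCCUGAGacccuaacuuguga
mmu-miR-99b-5p: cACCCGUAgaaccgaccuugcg
mmu-miR-34a-5p: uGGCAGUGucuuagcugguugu
They were chosen after their values were seen, apart from Mir125b-1, and no 2 of these 7 share a seed.

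Mir203, whose product is known to push keratinocytes out of the stem cell state, stood at 269 and 264 in mTEC-I against 377 and 456 in mTEC-III (log2 change 0.63 ± 0.11, adjusted p = 0.000411). Mir205, a microRNA gene of basal epithelium, moved the other way, at 540.1 and 467 in mTEC-I against 308 and 327 in mTEC-III (log2 change -0.66 ± 0.15, adjusted p = 0.00367). Mir10b, which lies in the Hoxd cluster, stood at 69.7 and 91.1 normalised tags in the mTEC-I libraries and 322 and 389 in the mTEC-III libraries. It was several-fold higher in both mTEC-III libraries (log2 change 2.14 ± 0.14, adjusted p = 4.28e-08), and Mir196b of the Hoxa cluster stood at 13.2 and 17.6 in mTEC-I against 35.3 and 52.99 in mTEC-III (log2 change 1.45 ± 0.30, adjusted p = 0.00141). The pair of genes that encode miR-125b, with 1 mature sequence, differed: all 5 peaks of Mir125b-1 were lower, summing to 838 and 840.1 in mTEC-I against 243 and 310.3 in mTEC-III (log2 change -1.61 ± 0.10, adjusted p = 4.12e-08), while Mir125b-2 stood at 201 and 188 in mTEC-I against 257 and 254 in mTEC-III (log2 change 0.39 ± 0.11, adjusted p = 0.0102). The difference between the pair was not tested. Mir99b was lower (log2 change -0.86 ± 0.11, adjusted p = 3.59e-05) and Mir34a, a target of p53, higher (log2 change 0.62 ± 0.09, adjusted p = 8.38e-05). A peak near a microRNA gene may belong to its host or neighbour, and no microRNA was measured.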

How the data were processed

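H3K4me2 was measured by indexed chromatin immunoprecipitation and sequencing (iChIP) in sorted thymic epithelial cells. Picard 1.108, bcl2fastq 2.15.0.4 and the mouse build mm9 stand in the submitters' processing notes. The aligner was not given in the sources used here. Per the file headers, the authors called peaks for each population with HOMER findPeaks and annotated the merged peaks with annotatePeaks. The deposited table holds signal, as tags per 10000000 library tags in each merged peak. The deposited peak lists add fold ratios and p-values from the peak caller, which were read but not tested. Whole-cell extract libraries were not analysed here.

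Values were tested as log2(value + 1) with limma 3.58.1 in R 4.3.3 (linear model with an intensity trend over all 8 libraries and 4 populations), keeping peaks or genes with at least 10 normalised tags in at least 2 libraries. Benjamini-Hochberg adjusted p-values under 0.05 were calls. The values were whole steps of 0.5 tags in 100% of cases (within 0.1 of a step), so recovered tags were also tested with edgeR 4.0.16 and DESeq2 1.42.0. The script was tested on simulated data. The 2 mitochondrial peaks were left out.

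Named were the 12 genes and 6 peaks of largest change each way (called, a mean of at least 100 in the higher population, no overlap), the gate genes, up to 4 called genes each way from each of 30 lists, and the 3 genes with most called peaks up, down or both; further genes named were chosen after their values were seen. The members, lists and rules were chosen with earlier results of these data known. Strings were searched on both strands of 250 bases: TGANTCA for AP-1, GAAA with any 2 bases and GAAA for the interferon element (ISRE), AACNGGTT and AACCNGTT for GRHL factors, GGGNGTGG and GGGTGTGG for KLF factors, ACCGGAAG and AGGAAGT for ETS factors, TTGCNNAA and TTNCNNAA for C/EBP, TATAAA for the TATA box, AGATAA for GATA factors, CCAAT, GCCNNNGGC for AP-2, GGAATG for TEAD, and 1 form each of the serum response (CArG) and NF-kB elements. Some overlap: the strict and loose forms match the same places. AACCNGTT is AACNGGTT read on the other strand, so the GRHL pair is the same search.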

Additional observations from a re-analysis of the deposited data

How the results depend on the processing

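The counts kept their size within 1.5 times under the other scalings, pseudocounts, filters, edgeR, DESeq2 and voom, with these exceptions. With the 4 mTEC-III and mTEC-I libraries alone 3141 peaks were higher and 2654 lower, and with array weights 2546 peaks were lower. With peaks within 2 kb of a start 1250 genes were higher, by construction from fewer peaks. Leaving out 1 library at a time gave 2660 to 7745 higher and 2075 to 5792 lower peaks, and 1464 to 3398 higher and 1490 to 3422 lower genes. Without mTEC-I replicate 1 there were 7745 higher peaks; without mTEC-III replicate 1 2882 higher and 2075 lower peaks and 1490 lower genes; and without mTEC-III replicate 2 2660 higher peaks and 1464 higher genes. The balance turned in both: 3096 peaks were lower without mTEC-III replicate 2, and 1732 genes were higher without replicate 1. The cause was not tested.

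The replicate numbers were not shown to pair the samples (correlation of the replicate differences 0.010). With replicate as a block 4955 peaks were higher and 3945 lower, and 2316 genes higher and 2569 lower.

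Of 167 called named genes 118 were called under every alternative run. Of 3414 alternative values 3209 kept direction and side of the threshold, 184 lost the call, 14 gained one and 7 changed sign. The sign changed over peaks within 20 kb for Ptprc (2.04), Acvr2a (-0.12), Snap25 (2.39) and Nav2 (-0.36), and within 2 kb for Acvr2a (-0.12), Snap25 (2.39) and Nav2 (-0.38), where other peaks are left out of the sum. Depth limits mTEC-I replicate 2 most: levels under 17.6 there are within 3 tags. The alternatives for list counts were chosen after seeing the data.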

Other observations

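Peaks were also compared by sequence class and position, chosen after seeing the data. Peaks centred on a CpG island were higher in 5.10% and lower in 15.99% of 2039, against 18.04% and 13.5% of the other 27430. Peaks in a 5′ UTR were higher in 7.48% and lower in 24.3% of 695. Of 711 peaks centred on an LTR repeat 220 (30.9%) were higher and 64 lower, and of 972 on a SINE 27.4% and 8.44%. Peaks with no such repeat were higher in 16.2% and lower in 14.1%. Among peaks farther than 1 kb from a start, the shares of LTR peaks and of peaks with no repeat that were higher were 33.7% and 23.98% up to 25 normalised tags, 31.4% and 24.5% from 25 to 50, 27.95% and 19.7% from 50 to 100, 25.5% and 19.4% from 100 to 200, and 45.5% (of only 22) and 18.4% over 200. Peaks wider than 5 kb were higher in 25.1% and lower in 15.4% of 2328, against 16.5% and 13.5% of narrower peaks. On chromosome X 7.62% of 551 peaks were higher and 7.44% lower, against 17.3% and 13.8% on autosomes.

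Peaks up to 25 normalised tags were higher in 24.8% and lower in 4.23% of 3763. With cyclic loess these shares were 15.0% and 10.1%, so the balance among the lowest peaks moves with the scaling.

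Themis, a thymocyte signalling gene, stood at 18.6 and 5.88 in mTEC-I against 81.4 and 70.7 in mTEC-III (log2 change 2.73 ± 0.36, adjusted p = 3.22e-05), and Cd2, a T cell adhesion gene, at 54.2 and 64.6 in mTEC-I against 23.3 and 20.02 in mTEC-III (log2 change -1.41 ± 0.30, adjusted p = 0.00196). Over peaks within 20 kb of its start Themis had no tested level, so its change rests on distant peaks. Cx3cr1, a chemokine receptor gene of macrophages, had 1.5 tags in mTEC-I and 36 in mTEC-III, a ratio of 11.9 (95% exact interval 2.61 to 171, counting error only).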
